A study of Homo sapiens with 4 samples.

Results

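The IL-6 family and the colony-stimulating factors were followed through 9 genes: the ligands IL6, LIF, IL11, CSF1, CSF2 and CSF3, and the receptor chains IL6R, IL6ST and LIFR. Members were all non-control probes that carry 1 of these gene names in the array design, which gave 20 of 34127 probes under 9 of 25992 gene names. The arrays read RNA of human proximal tubular cells (HPTCs) that spent 24 h in starvation medium and the next 24 h with the inflammatory cytokine IL-1β (10 ng/ml) together with the SGLT2 inhibitor empagliflozin (Empa, 500 nM). Of the 4 arrays, 2 were labelled HK-2, a proximal tubular line immortalised with papillomavirus E6 and E7 genes, and 2 were labelled RPTEC/TERT1, a proximal tubular line immortalised with telomerase. They are called H1 and H2 (HK-2, replicates 1 and 2) and R1 and R2 (RPTEC/TERT1, replicates 1 and 2). All 4 arrays received both agents, and no array of untreated cells or of cells given only IL-1β was used here, so the values are levels under the combined stimulation and not responses to it. The methods describe biological duplicates of each line, and each line is 1 immortalised population.

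IL-6 family cytokines signal through receptor complexes built around the shared chain gp130, encoded by IL6ST. IL-6 and IL-11 first bind a receptor of their own, whereas LIF binds the LIF receptor, which then pairs with gp130. The complexes activate JAK kinases and STAT3, and SOCS3 closes the loop by inhibiting them. The colony-stimulating factors M-CSF (CSF1), GM-CSF (CSF2) and G-CSF (CSF3) act on macrophages, granulocytes and their precursors through other receptors. In kidney tubular cells, IL-1 receptor signalling through NF-κB is a known inducer of several of these ligands.

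The promoters of IL6, CSF2 and IL11 are shown because IL6 had its higher levels on other arrays than CSF2 and IL11. Each sequence is the 250 bases before the RefSeq start site (GRCh38.p14), read 5′ to 3′ on the strand of the gene. IL6 lies at chr7:22726950-22727199 (plus strand), CSF2 at chr5:132073539-132073788 (plus strand) and IL11 at chr19:55370464-55370713 (minus strand). Capitals mark letters that match GGGA and CC with 4 free bases between them (a loose form of the NF-κB site), TTGCNNAAT (a C/EBP-type site) or TGANTCA (an AP-1 site) on either strand.
IL6: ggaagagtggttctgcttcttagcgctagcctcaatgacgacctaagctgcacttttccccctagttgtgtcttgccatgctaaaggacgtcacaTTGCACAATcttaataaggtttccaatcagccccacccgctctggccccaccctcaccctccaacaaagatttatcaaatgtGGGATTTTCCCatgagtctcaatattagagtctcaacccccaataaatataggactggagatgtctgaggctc
CSF2: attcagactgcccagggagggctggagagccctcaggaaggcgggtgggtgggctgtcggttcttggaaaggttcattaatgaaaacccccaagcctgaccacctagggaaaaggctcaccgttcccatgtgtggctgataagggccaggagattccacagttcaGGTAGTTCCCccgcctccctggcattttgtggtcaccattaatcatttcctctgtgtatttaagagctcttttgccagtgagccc
IL11: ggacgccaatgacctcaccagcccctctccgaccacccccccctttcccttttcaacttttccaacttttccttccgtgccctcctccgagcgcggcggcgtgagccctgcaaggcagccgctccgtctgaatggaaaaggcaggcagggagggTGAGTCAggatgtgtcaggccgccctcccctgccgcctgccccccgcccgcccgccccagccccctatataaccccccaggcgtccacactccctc

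In the IL6 window the NF-κB-type match began 73 bases before the start site, and an overlapping match on the other strand began 72 bases before it. The C/EBP-type match of IL6 began 155 bases before the start. The CSF2 window held 1 NF-κB-type match, on the reverse strand, beginning 85 bases before the start, and the IL11 window held 1 AP-1 match that began 96 bases before it. These letters occur elsewhere too, since 22.6% of the 35116 promoter windows of this length hold the NF-κB-type letters, 6.57% hold TGANTCA and 2.39% hold TTGCNNAAT. The 6 members with a promoter entry held 8 windows, because LIFR had more than 1, so these shares per window are not shares per gene. Of these members, IL6, CSF2, IL6R and IL6ST matched the NF-κB-type letters, IL6 and LIFR matched TTGCNNAAT, and IL11 matched TGANTCA. The LIFR match did not occur in all of its windows. LIF, CSF1 and CSF3 had no entry. A match describes the letters only, and no binding was measured.

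The probes are 60 bases long, and 3 of them are shown because they bear on what the signal of a gene stands for. Positions are those of the array files, whose headers name GRCh37. The CSF2 probe (chr5:131411452-131411511, plus strand) is the sole probe of its gene. The LIF probe (chr22:30639661-30639720, minus strand) and the CSF1 probe (chr1:110466137-110466196, plus strand) are probes at or near the background in genes that another probe read well above it.
CSF2: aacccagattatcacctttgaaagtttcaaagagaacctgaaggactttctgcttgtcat
LIF: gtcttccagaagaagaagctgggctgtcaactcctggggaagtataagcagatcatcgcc
CSF1: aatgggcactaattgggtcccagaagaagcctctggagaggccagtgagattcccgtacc

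The level of a probe is the log2 of its processed signal over the array's 75th percentile, so a level of 0 is that percentile. Levels were floored at -5.37, the highest of the arrays' lowest well-above-background signals. Probes differ in binding strength, and a level was therefore compared between arrays for the same probe and not between probes of different genes. The 75th percentile itself was 393 on H1, 748 on H2, 488 on R1 and 429 on R2, and 59.2% to 64.9% of spots were well above background. The number of arrays, 2 per label, limits the precision. In RNA pooled from a culture, fewer cells that express a gene and less of its RNA per cell cannot be told apart.

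The arrays did not group by their cell line labels. Over the 17928 genes above background on at least 1 array, H1 correlated with R2 at r = 0.980 and H2 with R1 at r = 0.976, whereas r was 0.865 between the HK-2 arrays and 0.855 between the RPTEC/TERT1 arrays. These correlations describe genes of the same arrays and carry no test. The values are therefore given for each array under the label it carries, and no array was moved to another group. Whether sample labels were exchanged was not tested, and each difference between the labels, or between the replicates of a label, holds only for the labels as they stand. Replicate 1 of both lines was scanned on 1 day and replicate 2 on another, and since each array had its own slide, a slide effect cannot be told apart from the array.

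The defining markers of the labelled cell type were present only in part. Of 17 proximal tubule genes 7 were well above background on all 4 arrays, and CUBN, SLC5A1, SLC22A6 and HNF4A were among those on none. ANPEP, SLC3A1 and the epithelial cadherin CDH1 were above background on H1 and R2 only, and the matrix genes DCN and LUM on H2 and R1 only. CDH1 did not stand for its list, since 4 of 5 epithelial genes (KRT8, KRT18, KRT19 and EPCAM) were well above background on all 4 arrays. EPCAM had levels of 3.70, 3.41, 2.78 and 3.96 on H1, H2, R1 and R2. The distal nephron gene SLC12A1 was, like ANPEP, above background on H1 and R2 only. The tubular scaffold gene PDZK1 ran the other way from ANPEP, with levels of -1.34, 1.52, 1.04 and -0.86 on H1, H2, R1 and R2, so the tubule markers did not share 1 direction. The summed scaled signal of the 6 fibroblast and mesangium genes was 0.162 on H1, 1.94 on H2, 1.48 on R1 and 0.154 on R2, with COL1A2, PDGFRA and PDGFRB on none. Well above background were 1, 3, 3 and 0 of these genes in that order. A gene at the floor still adds to the sum, so the floor sets much of the sums on H1 and R2. The summed scaled signal of the 7 leukocyte genes on the array was 1.07, 1.73, 2.22 and 0.965 in the same order. ANPEP, SLC3A1, CDH1, DCN, LUM and PDZK1 set H1 and R2 apart from H2 and R1, in either direction, as did several members described next. Of all genes tested, 12.3% were past 2-fold in both labels with the higher level on H1 and R2. The share with the higher level on H2 and R1 was 11.4%. The part of these markers in the values of the members was not tested.

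All 6 ligands gave a signal well above background on at least 2 arrays, and every one except CSF3 did so on all 4 (plot of probe levels by gene). IL6, CSF1 and CSF3 had their higher levels on H1 and R2. IL11 and CSF2 had theirs on H2 and R1. LIF stayed within a narrow range. No probe of any member was saturated on any array.

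**Figure D1:**
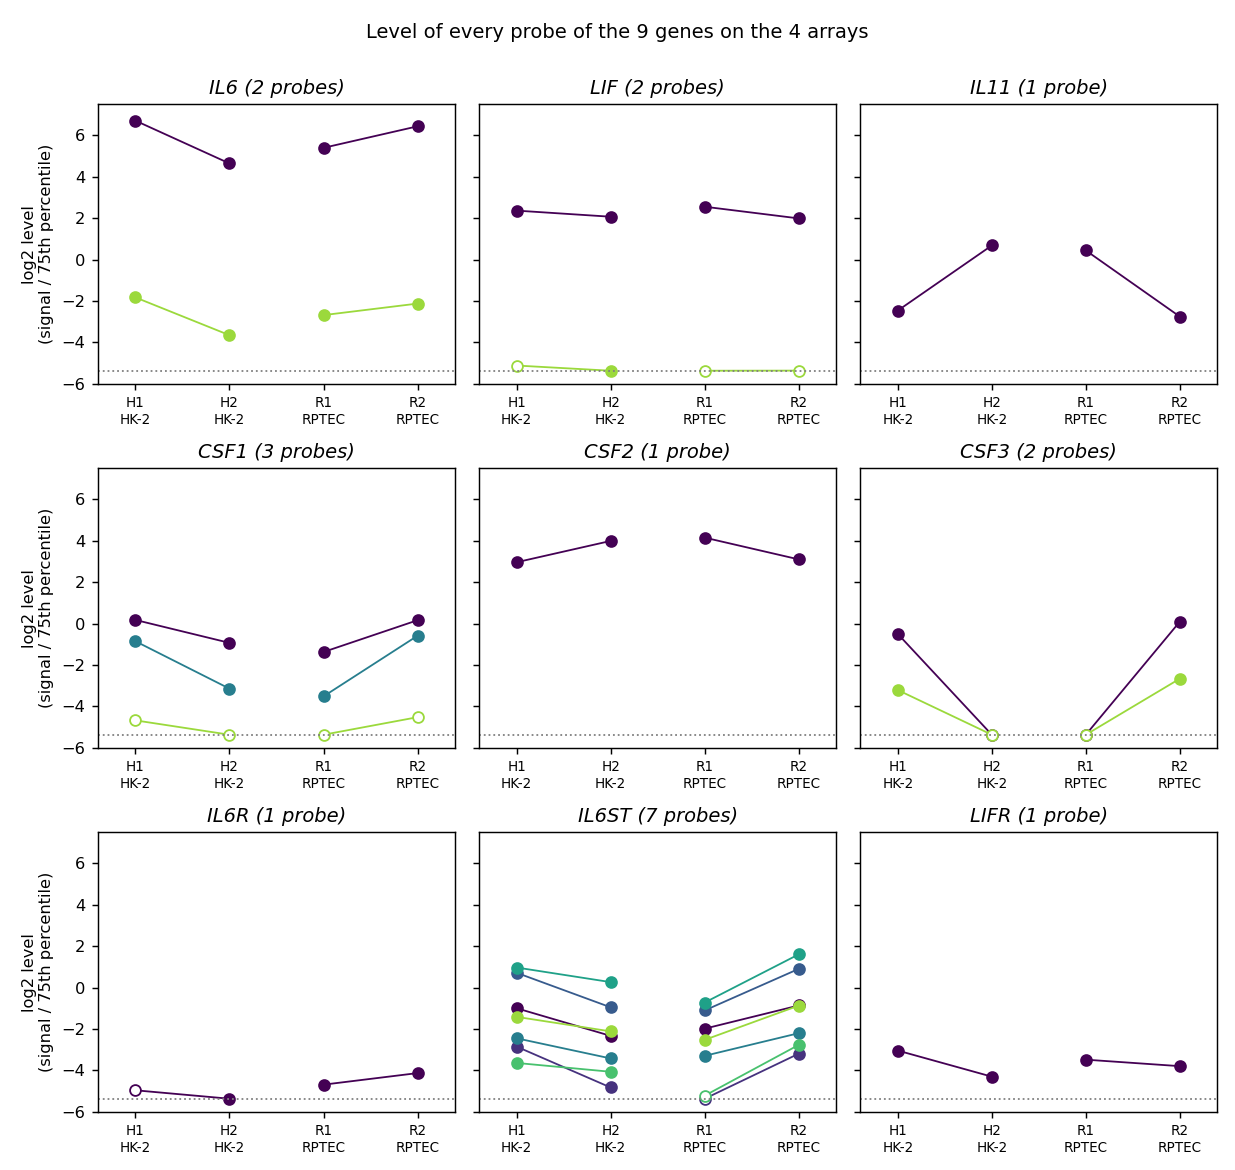
Level of each of the 20 probes of the 9 genes (log2 of signal over the 75th percentile of the array, y axis) on the 4 arrays (x axis, RPTEC for RPTEC/TERT1), 1 colour per probe, with lines joining the arrays of 1 label. Filled points are well above background, open points are not, and the dotted line is the floor of -5.37. IL6, CSF1, CSF3 and IL6ST form a U shape and IL11 and CSF2 an arch, and both CSF3 probes lie at the floor on H2 and R1.

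IL6 encodes interleukin-6, the founding cytokine of the family and an inducer of the acute-phase response. Its main probe (chr7:22771207-22771266) is printed 10 times on each array. The level was 6.71 on H1, 4.65 on H2, 5.40 on R1 and 6.44 on R2. The array with the highest and the array with the lowest level thus carried the same label, and the RPTEC/TERT1 levels lay between them. As outliers, 3 of the 10 spots were dropped on H2 and 2 on R2. The SD over the spots kept was 0.0841, 0.0600, 0.141 and 0.0725 in that order. No kept spot of an array overlapped the kept spots of another (plot of IL6 spots). The spots are repeats within 1 array and say nothing about the spread between cultures. Replicate 1 was 4.19-fold above replicate 2 in HK-2, and replicate 2 was 2.06-fold above replicate 1 in RPTEC/TERT1.

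**Figure D2:**
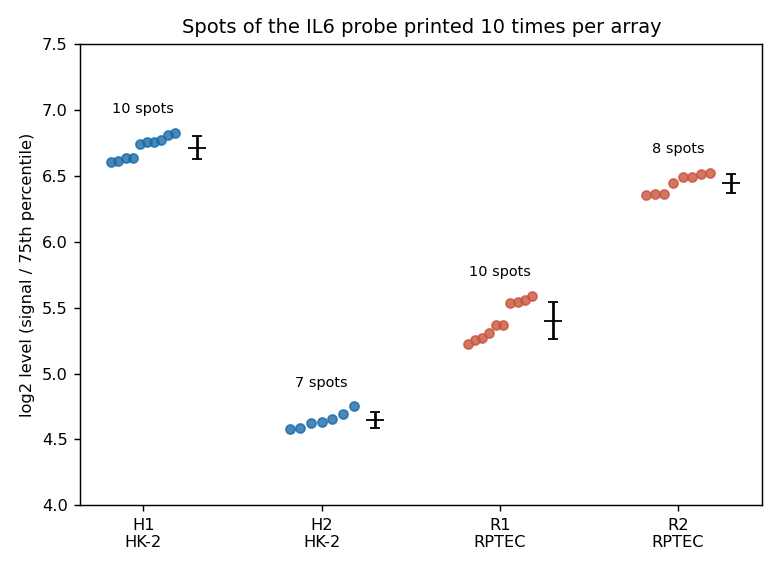
Spots of the repeated IL6 probe that were not marked as outliers (log2 of signal over the 75th percentile of the array, y axis starting at 4) on each array (x axis), with the mean and SD of the spots beside them. The spots span 6.60 to 6.82, 4.58 to 4.75, 5.23 to 5.59 and 6.35 to 6.52 from left to right, and the spread between arrays exceeds the spread between spots.

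The brightest IL6 spots reached 72.8% of the saturation signal on H1 and 62.6% on R2, against 34.4% and 37.8% on H2 and R1. The design also holds a second probe under the name IL6 (chr7:22769363-22769422), made for a predicted transcript. Its levels were -1.83, -3.65, -2.68 and -2.13 on H1, H2, R1 and R2. It put the arrays in the same order, so the probes of IL6 did not disagree on the ranking.

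LIF encodes leukemia inhibitory factor, a family member that acts through LIFR and gp130. The probe that detected it (chr22:30636713-30636772) had levels of 2.37 and 2.07 on the HK-2 arrays and 2.56 and 1.99 on the RPTEC/TERT1 arrays. The labels overlapped, and replicate 1 was the higher array in both, by 1.23-fold in HK-2 and 1.48-fold in RPTEC/TERT1. The LIF probe printed above was well above background on H2 alone and lay at or just above the floor on all 4 arrays, between -5.37 and -5.12. The LIF probes thus disagreed on whether the gene was measurable.

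IL11 encodes interleukin-11, which binds IL-11Rα and then gp130 and is known from fibrosis models in several organs. Its probe (chr19:55875788-55875847) had levels of -2.47 on H1, 0.68 on H2, 0.44 on R1 and -2.76 on R2. Each label held 1 high and 1 low array. The high array was 8.86-fold above the low one in HK-2 and 9.18-fold in RPTEC/TERT1. With normexp background correction in place of the processed signal, the HK-2 difference shrank to -1.05 on the log2 scale (replicate 1 minus replicate 2) and the RPTEC/TERT1 difference to 2.37.

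CSF1 encodes M-CSF, the survival factor of macrophages, and was read by 3 probes. The probe at chr1:110469302-110469361 had levels of 0.18, -0.93, -1.37 and 0.16 on H1, H2, R1 and R2. The probe at chr1:110472240-110472299 had levels of -0.85, -3.15, -3.52 and -0.59. Both were high on H1 and R2, but the fold between the arrays of a label differed, at 2.15 and 2.90 for the former probe (HK-2 and RPTEC/TERT1) and 4.89 and 7.62 for the latter. The CSF1 probe printed above was not well above background on any array.

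CSF2 encodes GM-CSF. Its levels were 2.97 on H1, 4.00 on H2, 4.16 on R1 and 3.10 on R2. The pattern ran in the direction of IL11 and opposite to CSF1 and CSF3, with a smaller span, since the high array exceeded the low one by 2.04-fold in HK-2 and 2.07-fold in RPTEC/TERT1. Both folds lie just past 2, the size used for the counts that follow.

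CSF3 encodes G-CSF, the growth factor of neutrophils, and its signal was present or absent by array. The probe at chr17:38173710-38173769 had levels of -0.50 on H1 and 0.10 on R2, and was not well above background on H2 and R1. With the dim array taken at the floor of -5.37, the brighter array was at least 29.3-fold higher in HK-2 and at least 44.2-fold higher in RPTEC/TERT1. The other probe (chr17:38173251-38173310) had levels of -3.21 and -2.66 on the same bright arrays, which at the same floor gave at least 4.47-fold in HK-2 and at least 6.54-fold in RPTEC/TERT1. Both probes thus detected CSF3 on the same 2 arrays, 1 of each label.

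Of the receptor chains, IL6ST and LIFR were detected on all 4 arrays and IL6R on 3. IL6R encodes the IL-6-binding chain, which in many epithelia is scarce while a soluble form can serve in its place. Its probe (chr1:154440037-154440096) was not well above background on H1, where its level was -4.96, was at the floor on H2, and read -4.69 and -4.13 on R1 and R2. IL6R was the only member whose 2 labels did not overlap, a state found in 7.18% of the 16473 genes tested, and all 4 levels were near the background. The difference between the labels (HK-2 minus RPTEC/TERT1) was -0.76 on the log2 scale and turned to 0.78 with normexp correction and 0.39 with the deposited log2 values, where the HK-2 arrays themselves lay 2.99 and 2.13 apart.

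IL6ST was read by 7 probes, of which 5 were well above background on all 4 arrays and 2 on 3. The probe at chr5:55238513-55238572 had levels of 0.97 and 0.26 on H1 and H2 and -0.72 and 1.61 on R1 and R2. The probe at chr5:55230909-55230923 (the part of it that the files place there) had levels of 0.72, -0.95, -1.10 and 0.90 in the same order. All 7 probes were higher on replicate 1 in HK-2, by 0.43 to 1.98 on the log2 scale, and lower on replicate 1 in RPTEC/TERT1, where replicate 1 minus replicate 2 ran from -2.45 to -1.09, including 2 probes not well above background on R1. The direction was shared over the whole gene, while the size varied between probes.

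LIFR encodes the LIF-binding chain. Its probe (chr5:38475942-38476001) had levels of -3.04 and -4.30 on H1 and H2 and -3.48 and -3.80 on R1 and R2. Replicate 1 was higher in both labels, by 1.26 in HK-2 and 0.31 in RPTEC/TERT1 on the log2 scale, so that LIFR, like LIF, did not share the opposite pattern of the other members. The RPTEC/TERT1 difference changed sign with normexp correction, to -0.01.

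For counts over genes, a gene took the mean of its probes with signal well above background on 1 array or more. The difference between replicate 1 and replicate 2 of HK-2 was past 2-fold for 7 of the 9 members (IL6, IL11, CSF1, CSF2, CSF3, IL6ST and LIFR), beside 34% of all genes tested. In RPTEC/TERT1 it was past 2-fold for 5 of 9 (IL11, CSF1, CSF2, CSF3 and IL6ST), beside 40.4%. IL6 was at -0.80 (log2) there as the mean of its probes, under 2-fold, and past it at its main probe alone. CSF1, CSF3 and IL6ST were past 2-fold in both labels with the higher level on H1 and R2, as were 12.3% of all genes. IL11 and CSF2 were past 2-fold in both with the higher level on the other 2 arrays, as were 11.4% of all genes. The median size of the difference was 1.26 (log2) over the members and 0.67 over all genes in HK-2, and 1.05 and 0.79 in RPTEC/TERT1. These counts describe single pairs of arrays and carry no test.

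**Figure D3:**
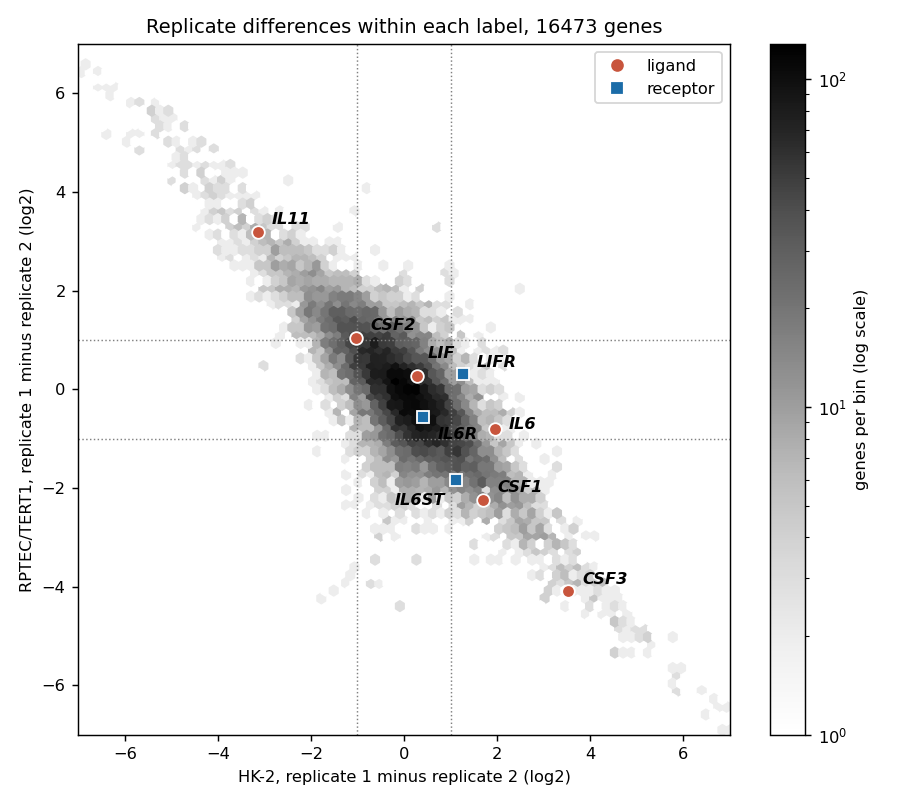
Replicate 1 minus replicate 2 (log2) within the HK-2 label (x axis) and within the RPTEC/TERT1 label (y axis) for the 16473 genes tested (grey, number of genes per bin on a log scale, genes beyond 7 not drawn), with the 6 ligands as circles and the 3 receptors as squares. Dotted lines mark a 2-fold difference. CSF3, CSF1 and IL6ST lie at the lower right, IL11 and CSF2 at the upper left, along the band formed by all genes, while IL6 is past 2-fold on the x axis alone and LIF lies near 0.

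The design asks whether the cell lines differed under the combined stimulation. No member differed between the labels by limma with Benjamini-Hochberg adjustment (0 of 9, beside 0% of 16473 genes), and none had an unadjusted p under 0.05, which 23 of all genes had. The difference, HK-2 minus RPTEC/TERT1 on the log2 scale, was -0.29 for IL6 (95% interval -2.54 to 1.96), 0.03 for LIF (-1.15 to 1.22) and 0.27 for IL11 (-4.04 to 4.57). For the colony-stimulating factors it was 0.14 for CSF1 (-2.70 to 2.98), -0.15 for CSF2 (-1.92 to 1.62) and -0.29 for CSF3 (-5.41 to 4.84). The receptors differed by -0.76 for IL6R (-2.06 to 0.55), 0.04 for IL6ST (-2.25 to 2.32) and -0.03 for LIFR (-1.69 to 1.62). The widest intervals belonged to CSF3 and IL11, whose arrays within a label lay furthest apart, and none of these intervals shows that the lines had equal levels. The spread within a label, which limma takes as error, includes the gap of H1 and R2 from H2 and R1. With the labels as they stand, the empty result therefore cannot decide whether the lines differed.

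Within a scan day the labels stood apart for every member except LIF, and in opposite directions on the 2 days except for IL6R and LIF. Among the replicate 1 arrays, HK-2 was above RPTEC/TERT1 by 1.08 for IL6, 2.11 for CSF1, 3.52 for CSF3 and 1.51 for IL6ST on the log2 scale. Among the replicate 2 arrays the same differences were -1.66, -1.83, -4.09 and -1.44. IL11 was at -2.91 on replicate 1 and 3.44 on replicate 2, CSF2 at -1.19 and 0.89, and LIFR at 0.44 and -0.51. IL6R differed by -0.27 and -1.24. LIF differed by 0.03 and 0.04 as the mean of its probes, and by -0.19 and 0.08 at the probe that detected it on all 4 arrays, so its sign depended on the probes used.

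**Figure D4:**
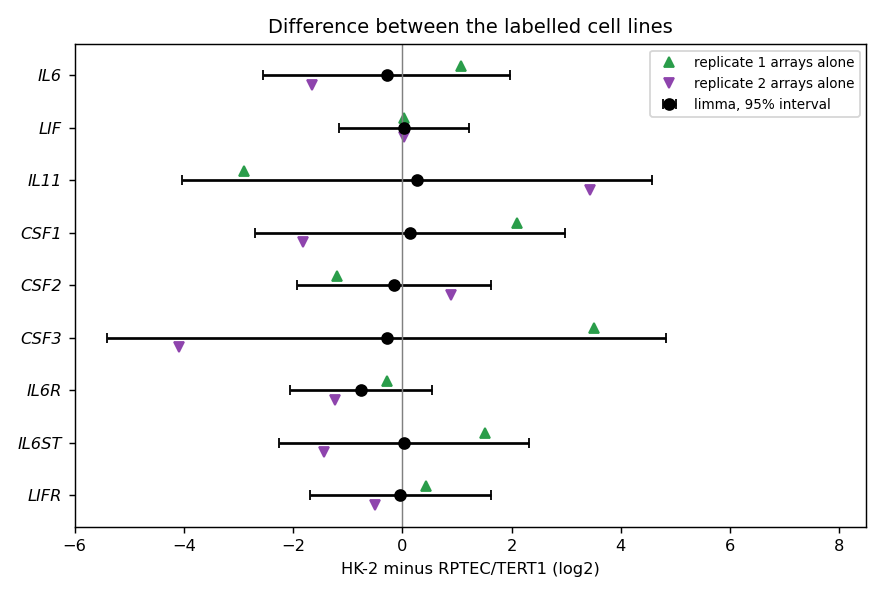
Difference between the labelled cell lines (HK-2 minus RPTEC/TERT1, log2, x axis) for the 9 genes (y axis). Circles and bars are limma's estimate over the 4 arrays with its 95% interval, and triangles are the difference between the 2 arrays of replicate 1 (pointing up) or replicate 2 (pointing down). Every interval includes 0, and for IL6, IL11, CSF1, CSF2, CSF3, IL6ST and LIFR the triangles lie on opposite sides of 0.

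The partners of the members were taken from lists, and no gene of any list was called between the labels. Of 8 further IL-6 family ligands or subunits, CLCF1 and EBI3 were among those well above background on all 4 arrays and CNTF and IL31 on none. EBI3, a subunit of IL-27 and IL-35, had levels of 0.87 and -1.45 on the HK-2 arrays and -1.71 and 0.80 on the RPTEC/TERT1 arrays, the U shape of CSF1. Of 5 further family receptors, OSMR (the oncostatin M receptor), IL11RA and IL27RA were above background on all 4 arrays, and CNTFR and IL31RA on none. IL11RA, the chain that binds IL-11, had levels of -3.05 and -3.12 on the HK-2 arrays and -3.26 and -3.04 on the RPTEC/TERT1 arrays, a narrow range beside the 8.86-fold and 9.18-fold gaps of its ligand.

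Among the receptors of the colony-stimulating factors, CSF1R, the receptor of M-CSF, was well above background on H2 (-2.09) and R1 (-2.07) and at the floor on the other 2 arrays, which are those with the higher CSF1 levels. CSF3R, the G-CSF receptor, was above background on all 4 arrays, at -1.87 and -1.90 in HK-2 and -2.95 and -0.72 in RPTEC/TERT1. CSF2RA, the GM-CSF-binding chain, was above background on none, and its shared signalling chain CSF2RB was on 3. Among related ligands, KITLG and FLT3LG were above background on all 4 arrays, and IL3, IL5 and IL34 on none.

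All 14 genes of the gp130 signalling list were above background on all 4 arrays. JAK2, STAT3, SOCS1, SOCS3 and ADAM10, a sheddase of the IL-6 receptor, were past 2-fold in both labels with the higher level on H1 and R2, and STAT5A with the higher level on the other arrays. SOCS3 had levels of 1.20 and -0.46 on the HK-2 arrays and -0.69 and 1.19 on the RPTEC/TERT1 arrays, the direction of IL6. All 16 genes of the IL-1 and NF-κB feedback list were above background on all 4 arrays as well. Of these, 8 were past 2-fold in both labels with the direction of CSF1, and IL1RAP was past it the other way. Among the 8, the IL-1 receptor IL1R1 was at -1.24, -3.92, -4.48 and -1.31 on H1, H2, R1 and R2. The inhibitor TNFAIP3 was at 1.81, -1.20, -1.95 and 1.74. For both lists, the shares over all genes tested were 12.3% in the direction of CSF1 and 11.4% the other way.

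**Figure D5:**
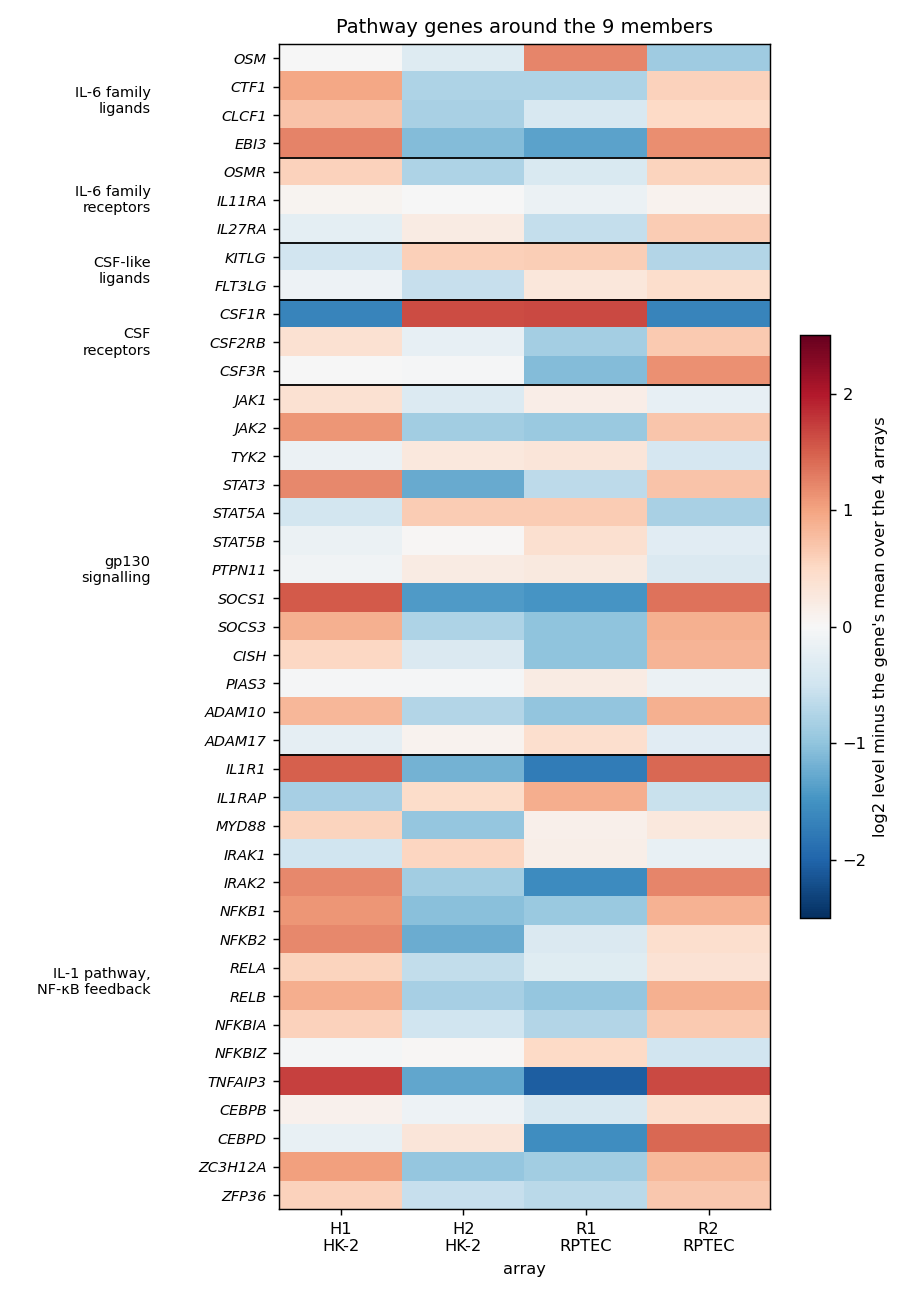
Level of 41 of the 43 list genes well above background on at least 2 arrays (rows, grouped by list, the other 2 not reported here) on the 4 arrays (columns, RPTEC for RPTEC/TERT1), as log2 level minus the mean of the gene over the arrays. Red is above and blue below that mean. The outer columns resemble each other, with EBI3, SOCS1, SOCS3, IL1R1 and TNFAIP3 red there, and CSF1R and KITLG red in the inner columns.

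For each ligand above background on all 4 arrays, the genes with the most similar pattern were sought among 13601 candidates, by the root mean square difference of levels centred on the mean of each gene. For IL6 these were ST7-AS1 (0.0184), RAB5B (0.0545) and KBTBD3 (0.0606), for LIF EPOR (0.0118), GANAB (0.0134) and CCAR1 (0.0196), and for IL11 GJB2 (0.0492), CENPK (0.0574) and VRK1 (0.0575), in log2 units. For CSF1 they were KAT2B (0.0204), NUDT7 (0.0226) and PMP22 (0.0229), and for CSF2 NPLOC4 (0.00689), ELK4 (0.0119) and SLC35E2B (0.0167). The likeness rests on 4 arrays and on the mean over the probes of a gene. For LIF that mean includes the probe at or just above the floor on all 4 arrays. It was highest on H1, whereas the probe that detected LIF on all 4 arrays was highest on R1. The neighbours of LIF therefore match the mean and not that probe alone.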

How the data were processed

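RNA of stimulated HPTCs was labelled and read on 4 one-colour Agilent arrays. For each array the authors deposited spot intensities from Feature Extraction 9.5.3.1, read in 1 channel at 5 µm per pixel, with background subtracted and no scaling between arrays. The flags for spots well above background, saturated or outlying were used as deposited. A table of log2 values deposited by the authors for the same spots, with a normalization the sources do not give, served as an alternative. Its medians were 8.31 and 7.04 (HK-2) and 6.67 and 6.65 (RPTEC/TERT1), and its lowest values lay between 5.65 and 5.75. Within each array it ranked the spots as the median signal minus background does (Spearman correlation 1). Its scale beyond log2 and its centring stay unknown. It comes from the same spots as the normexp values, so these alternatives are not independent of each other. The files hold 0 columns of other samples. The methods name an innuPREP kit for RNA and the labels an RNeasy kit.

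Control and outlier spots were dropped, each array's signals were scaled to its 75th percentile, floored and taken to log2, and spots of a probe were averaged. Gene values are means over probes well above background on at least 1 array. Genes above background on at least 2 of 4 arrays (16473) were compared with limma 3.58.1 in R 4.3.3 (lmFit, eBayes, Benjamini-Hochberg at 0.05), after a check on simulated data. Alternatives were normexp with an offset of 50, quantile normalization, the deposited log2 values, other filters, the brightest probe, outlier spots kept, levels without the floor, a replicate block and leaving out each array. Named genes were the 9 members, listed pathway genes above background, and the 3 genes nearest to each ligand detected on all arrays. Markers, and listed genes such as CSF1R that some arrays did not detect, are named beside that rule, after their values were seen. Some listed genes are not reported here. Members and lists were chosen with earlier results of these data known. Symbols come from the array design and positions from the files (GRCh37). Promoters came from a RefSeq table of GRCh38.p14, where 6 of 9 members matched. No annotation of GRCh37 was used, so exons and UTRs are not given.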

Additional observations from a re-analysis of the deposited data

Results flagged for a closer look

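Several members differed in opposite directions between the replicates of the 2 labels. Replicate 1 minus replicate 2 in HK-2, minus the same difference in RPTEC/TERT1, was 2.75 for IL6, -6.35 for IL11, 3.93 for CSF1, -2.08 for CSF2, 7.60 for CSF3, 0.97 for IL6R and 2.95 for IL6ST on the log2 scale. Each label holds 1 array per replicate, so these differences were not tested. The value of CSF3 rests on arrays at the floor, and IL6R was near the background on every array.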

How the results depend on the processing

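Under every alternative run, limma called 0 genes and 0 members between the labels, with 3 to 245 genes under 0.05 before adjustment. With the replicate number as a block it called 0 of 16473 genes and 0 members (5 genes unadjusted). Same-numbered arrays deviated from their label means with a correlation of -0.810, and with 2 pairs the numbers were not taken to pair the arrays. With the crossed pairing as a block, chosen after seeing the data, it called 0 genes (183 unadjusted, 1 of them a member). Members past 2-fold numbered 6 to 9 in HK-2 and 4 to 6 in RPTEC/TERT1 over the settings. These counts are out of 9 members, or out of 7 where only genes above background on all 4 arrays were kept. The share of all genes is given for the main setting alone (34% in HK-2 and 40.4% in RPTEC/TERT1). Whether the counts under the other settings follow all genes was therefore not shown. With normexp the HK-2 difference (replicate 1 minus replicate 2) grew from 0.27 to 1.15 for LIF, from 0.41 to 2.99 for IL6R, from 1.26 to 2.70 for LIFR and from -1.03 to -2.12 for CSF2. The mean level over the arrays moved by more than the replicate SD for IL6, LIF and IL6ST with the brightest probe, and for LIF, IL6R and LIFR with normexp and the deposited values. The sign of the difference between the labels (HK-2 minus RPTEC/TERT1, log2) turned for LIF with quantile normalization (-0.0090) and the brightest probe (-0.054), for CSF3 with normexp (0.059), for IL6R with normexp (0.78) and the deposited values (0.39), and for LIFR with normexp (0.75) and the deposited values (0.42). The cause was not tested. Leaving out 1 array at a time turned the sign for every member except IL6R: the difference ran from -1.26 to 0.68 for IL6, from -0.11 to 0.17 for LIF, from -1.33 to 1.86 for IL11, from -0.98 to 1.26 for CSF1, from -0.67 to 0.38 for CSF2, from -2.33 to 1.76 for CSF3, from -0.88 to 0.95 for IL6ST and from -0.66 to 0.60 for LIFR, while IL6R ran from -1.04 to -0.48. The lone array of a label was then assumed to vary like the other label's arrays.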
